A study of Mus musculus with 8 samples.

Results

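The genes described here build and run the core machines of the cell: cytosolic and mitochondrial ribosomes, the splicing apparatus, nuclear RNA polymerases, the CCT chaperonin, the proteasome and the respiratory chain. They are the protein-coding rows of the deposited table whose gene names begin with 1 of 15 prefixes (Rpl, Rps, Mrpl, Mrps, Eif, Hnrnp, Snrp, Lsm, Srsf, Cct followed by a digit, Psm, Polr, Nduf, Cox and Atp5). The rule used names alone and found 31 genes among the 1428 listed, 1097 of which are protein-coding. All 31 stood lower in knockout (KO) than in wild-type (WT) tumours, and 0 stood higher. Among the listed coding genes as a whole, 40.5% stood lower (444 of 1097), and among all listed genes 41.9% (599 of 1428).

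RNA sequencing had been run on colon tumours of C57BL/6N mice, with 4 libraries labelled Wildtype (WT1 to WT4) and 4 labelled miR-29ab1Vilin-KO (KO1 to KO4). Per the series' design text, miR-29ab1, a cluster encoding microRNAs of the miR-29 family, was disrupted in the intestinal epithelium alone, so the other cells of the tumour kept it, and tumours were induced in the mice by giving them azoxymethane, which damages DNA, and dextran sodium sulfate, an irritant of the colon lining. Whether WT mice carried floxed alleles or Cre, the age of the mice, and whether each library is a separate animal are not stated in the labels. The p-values therefore cover only how these libraries vary, and part of that may be technical. The values are gene counts divided by a size factor for each library (normalized counts).

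Ribosomes translate messenger RNA and are costly to make, so growing and dividing cells hold many of them. Small nuclear ribonucleoproteins (snRNPs), with hnRNP and SR proteins, remove introns from new transcripts and choose between splice sites. The chaperonin folds actin and tubulin among other clients, the proteasome degrades tagged proteins, and the respiratory chain passes electrons to oxygen in mitochondria. The transcripts of these machines are abundant in most tissues, and many of the genes, those of ribosomal proteins above all, have short coding sequences.

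Every gene in the deposited table has an unadjusted p below 0.05 for KO against WT, so each listed member had to differ, and a member that did not reach that p is not seen. The authors' deposited adjusted p-values imply 19985 genes tested, of which 7.06% were listed (1410 genes); 18 listed genes carry an adjusted p of 1 and are left out of that share. RefSeq holds 476 protein-coding genes with these prefixes, and the 31 listed are 6.51% of them, close to that background. The 476 include 20 kinases and other genes that only share a prefix, none of them listed, and genes that may not have been among the 19985. None of the 31 passed an adjusted p below 0.05 in the authors' deposited table, where the DESeq2 adjusted p of the members ran from 0.429 to 0.708 and 0.04% of the tested genes passed. The results below are therefore directions and sizes within a selected list.

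Libraries WT4 and KO4 stood apart from the others of their groups. Over the listed genes, the recovered reads of WT4 gave a chi-square for each degree of freedom of 61.0 to 94.2 against the other WT libraries, and 24.7 to 33.6 among WT1 to WT3; for KO4 it was 193.5 to 267.1, and 19.8 to 25.4 among KO1 to KO3. The listed genes held between 1202677 and 2180787 reads per library, the most in KO4. These sums cover the listed genes alone, and the full depth is not analysed here.

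The 31 genes spread over 10 of the 15 prefixes, and no gene of the Mrps, Eif, Lsm, Cox or Atp5 families was listed, out of 29, 56, 15, 27 and 17 RefSeq genes. The Snrp family had 4 of 12 listed (33.3%), Cct 3 of 9 (33.3%) and Hnrnp 4 of 21 (19.0%). Shares were nearer the background in Srsf (1 of 11, 9.09%), Rps (4 of 45, 8.89%), Rpl (4 of 56, 7.14%), Polr (2 of 29, 6.90%), Mrpl (3 of 49, 6.12%), Nduf (3 of 49, 6.12%) and Psm (3 of 51, 5.88%). Of the genes that only share a prefix, 12 are among the 45 Rps genes and 2 among the 51 Psm genes. The share of ribosomal Rps genes listed was thus above 8.89%. The median log2 fold change of the 31 was -0.45 in the authors' deposited table, against -0.77 over the 413 other listed coding genes that stood lower and 0.48 over all listed coding genes. The WT mean was 1.22 to 2.93 times the KO mean, with a median of 1.36, and 24 of the 31 lay under 1.5 times.

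The promoters of the members were read to see what they share beyond their names. Of the 31 genes, 27 had a RefSeq promoter window (GRCm38.p6, 250 bases before to 50 after a start), with 33 windows in all. Of 5 short motifs searched on both strands, TTCCG, which reads CGGAA on the other strand, was in 23 of the 33 windows (69.7%), against 29.9% of all 32851 promoter windows. It was in 37.4% of 369 windows of the other listed coding genes lower in KO and in 32.9% of 607 windows of those higher. These letters hold the GGAA core that ETS-family factors, such as the housekeeping regulator GABPA, are known to bind. CTTTC and CTCTT, pyrimidine runs of the kind found at ribosomal protein starts, were each in 54.5% of member windows, against 57.3% and 58.4% of all. GCCATC was in 6.06% against 14.1%, and CACGTG in 6.06% against 7.15%. CTTTC can overlap CTCTT and TTCCG. A match describes letters, not a bound site. Unlisted genes with the same prefixes were not counted apart, so whether the TTCCG share is particular to the listed genes was not tested.

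For each family with a match before the start, other than Nduf and Srsf, which had none, the match nearest to the start is printed here, 5′ to 3′ on the gene's strand, with the matched letters in capitals. The positions are GRCm38.p6, which is not the build of the table. They are Snrpe at chr1:133610281-133610310 (minus strand, match starting 9 bases before the start), Psma3 at chr12:70974593-70974622 (plus strand, match starting 13 bases before the start), Cct2 at chr10:117063853-117063882 (minus strand, match starting 17 bases before the start), Mrpl33 at chr5:31613919-31613948 (plus strand, match starting 20 bases before the start), Rps15 at chr10:80292373-80292402 (plus strand, match starting 46 bases before the start), Rpl10a at chr17:28328498-28328527 (plus strand, match starting 55 bases before the start), Polr3gl at chr3:96594244-96594273 (minus strand, match starting 80 bases before the start) and Hnrnph1 at chr11:50378006-50378035 (plus strand, match starting 218 bases before the start).
Snrpe: cgacgaccactgcacttccgtTTCCGggtc
Psma3: gttttcgtcccagcccaCGGAAcaagccgc
Cct2: cgagccgctacgcTTCCGgcccagcccgcc
Mrpl33: tgagccttctacCGGAAcccgcgcatgccc
Rps15: gtatccgcagagCGGAAgctgttgagcggt
Rpl10a: cttggctgagcgCGGAAcgtgcccgtaacg
Polr3gl: cccaagcctcagTTCCGgttaagctcgctc
Hnrnph1: gaggaggcggagCGGAAgcggcggccgcca
In Snrpe, Psma3, Cct2 and Mrpl33 the match lay within 20 bases of the start, whereas in Hnrnph1 it lay over 200 bases away.

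The large ribosomal subunit had 4 listed genes. Rpl7, which helps form the large subunit, stood at 16795, 19725, 15631 and 17431 normalized counts in WT1 to WT4 and at 14825, 14642, 13479 and 13432 in KO1 to KO4. Every KO library lay below every WT library, and the means were 17395 ± 1722 in WT and 14094 ± 742 in KO (SD, n = 4 each). Rpl22l1, a paralog of the ribosomal protein Rpl22, had 1391, 1820.4, 1470.4 and 2171 in WT and 864, 1352, 1035 and 1014 in KO, again without overlap. It had the smallest unadjusted p of the 31 in the authors' deposited table, 0.0035, next to a log2 difference of -0.68 (SE 0.22 in a DESeq2 refit of the recovered reads) and an adjusted p of 0.429. Rpl10a, another large-subunit protein, stood at 4548, 5961, 4665 and 6203 in WT and 3632, 3982, 3387 and 4971 in KO. Its KO4 value lay above WT1 and WT3, so the groups overlapped.

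The fourth, Rpl24, is named because its level is out of keeping with the family. It had a mean of 28.4 ± 7.85 normalized counts in WT and 12.8 ± 6.67 in KO (SD, n = 4 each), which per kilobase of the table's gene model is 31.1 in WT, against 6508 for Rpl7. Ribosomal protein genes have many near-identical processed copies in the genome, and no source used here says how reads shared with such copies were assigned. The values of all Rpl, Rps and Rpsa rows are uncertain to that extent.

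The small subunit also had 4. Rps9, a small-subunit protein that binds ribosomal RNA early in assembly, stood at 18052, 15809, 19400.0 and 32234 normalized counts in WT1 to WT4 and 14570.3, 15358, 13944 and 15879.6 in KO1 to KO4. WT4 was far above the other 3 WT libraries, and KO4 passed the lowest WT value. Rpsa, the laminin receptor family protein of the small subunit, had 10657, 9384, 8179 and 21857 in WT and 7244, 8393, 7548 and 8689 in KO. KO2 and KO4 lay above WT3, WT4 was 2.32 times the mean of WT1 to WT3, and leaving it out moved the KO mean from 0.637 to 0.847 of the WT mean.

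Rps12 had 13426, 14646, 10824 and 19282 normalized counts in WT and 9706, 11000.4, 9322 and 12122 in KO, with 2 KO libraries above WT3. It is a small-subunit protein, and at 476 bases its gene model was the shortest of the 31; per kilobase it was the most abundant, at 30555 normalized counts in WT. Rps15, at 275 ± 43.3 in WT and 202 ± 25.2 in KO (SD, n = 4 each), was far less abundant, with 437 per kilobase in WT. The 4 small-subunit genes overlapped between groups in every case. Among all listed coding genes lower in KO, 50.2% had no overlap, and 4 genes set no rate for the family. Without WT4 the median KO level of the 4 genes was 82.7% of WT, against 71.2% with it.

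**Figure D1:**
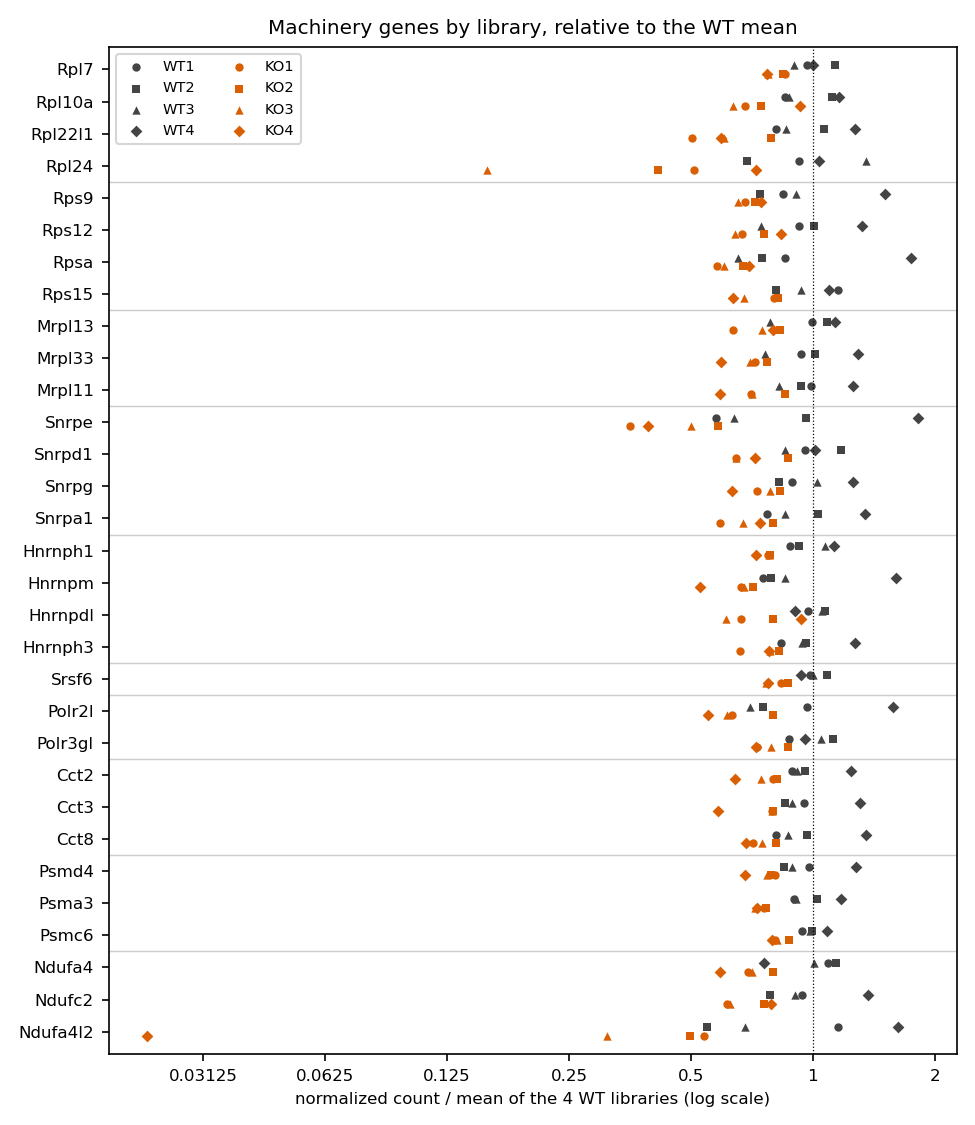
Normalized count of each of the 31 genes in each library divided by the mean of the 4 WT libraries (log scale, 1 marker per library, WT grey and KO orange, families divided by lines). All KO points lie left of 1; WT4, the grey diamond, is the rightmost WT point in 23 of the 31 genes.

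Mitochondria have ribosomes of their own, and 3 genes of their large subunit were listed. Mrpl13 stood at 1079, 1173, 846 and 1226 normalized counts in WT1 to WT4 and 688, 896, 809.7 and 863 in KO1 to KO4, Mrpl33 at 804, 870.2, 657 and 1113 in WT and 618, 663, 601 and 512 in KO, and Mrpl11 at 798, 754, 666 and 1014 in WT and 569.8, 691, 572 and 476 in KO. In each the overlap came from WT3, the lowest WT library, which lay below 1 or 2 KO values. The log2 fold changes in the authors' deposited table were -0.41, -0.52 and -0.49, with SEs in the DESeq2 refit of 0.17, 0.20 and 0.20. The gene models of Mrpl13 and Mrpl33, at 7490 and 7326 bases, were the longest of the 31.

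Of the splicing genes, 4 belonged to the Snrp family, 4 to Hnrnp and 1 to Srsf. Snrpe, Snrpd1 and Snrpg are Sm proteins, which form the ring around spliceosomal small nuclear RNAs. Snrpe had 721, 1201, 799 and 2276 normalized counts in WT1 to WT4 and 441, 728, 625 and 488 in KO1 to KO4. Its WT values spanned a wide range, with WT4 at 2.51 times the mean of the other WT libraries, and KO2 lay just above WT1. In the authors' deposited table Snrpe has a log2 difference of -1.13 (SE 0.40 in the DESeq2 refit), the largest among the members with a mean above 100 normalized counts; without WT4 the log2 ratio of the means was -0.67.

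Snrpd1 had 1033, 1267, 923 and 1094 normalized counts in WT and 698, 938, 697 and 777 in KO, where KO2 alone passed the lowest WT library. WT4 did not stand out in Snrpd1, and the ratio of KO to WT was 0.72 with it and 0.724 without it. Snrpg had 789, 735, 912 and 1119 in WT and 645, 736, 697 and 562 in KO, with KO2 above WT2. The other member of the family, Snrpa1, a protein of the snRNP that recognizes the intron branch site, stood at 834 ± 213 in WT and 584 ± 73.8 in KO (SD, n = 4 each), also with overlap.

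The hnRNP proteins coat new transcripts and alter splice site choice. Hnrnph1, which binds G-rich sequences, had 7008, 7363, 8536 and 8991 normalized counts in WT and 6183, 6246, 6211 and 5772 in KO. The KO libraries were close together and all below WT. Hnrnpm had 5832, 6109.6, 6599 and 12458 in WT and 5153, 5516, 5249.6 and 4079 in KO, where WT4 was 2.02 times the mean of the other WT libraries and KO4 the lowest of all 8, yet WT1 to WT3 still lay above every KO library. Hnrnpdl, a relative of the AU-rich RNA binding protein Hnrnpd, had 5498, 6028, 5953 and 5083 in WT and 3756, 4499.8, 3444 and 5260.2 in KO. Here WT4 was the lowest WT library and KO4, the highest KO library, lay above it. Hnrnph3, a relative of Hnrnph1, stood at 869 ± 162 in WT and 662 ± 60.1 in KO (SD, n = 4 each) without overlap.

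Srsf6, an SR protein that promotes exon inclusion, was among the steadiest members, at 7487, 8248, 7592 and 7087 normalized counts in WT and 6351, 6582, 5819.9 and 5877 in KO. The groups did not overlap, WT4 was the lowest WT library, and the log2 difference in the authors' deposited table was -0.30 (SE 0.10 in the DESeq2 refit). Across the 3 splicing families, 4 of the 9 genes had separate groups, 3 of them Hnrnp and 1 Srsf. Over all listed coding genes lower in KO the share was 50.2% (223 of 444), and so few genes set no rate for a family.

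RNA polymerase had 2 listed subunits. Polr2l, a small subunit shared by the nuclear RNA polymerases, had 838, 650.3, 605 and 1367 normalized counts in WT1 to WT4 and 547, 691, 529 and 477 in KO1 to KO4. WT4 was 1.96 times the mean of the other WT libraries, and KO2 lay above both WT2 and WT3. Polr3gl, a subunit of RNA polymerase III, which transcribes transfer RNA genes, had 332, 427, 399 and 365 in WT and 278, 331, 299.8 and 275 in KO, with KO2 just under WT1 and no overlap.

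The CCT chaperonin is a double ring of related subunits, and Cct2, Cct3 and Cct8 were listed. Cct2 stood at 7303, 7883, 7554 and 10248 normalized counts in WT1 to WT4 and 6583, 6729, 6152 and 5292 in KO1 to KO4. Cct3 had 5955, 5329, 5549.8 and 8151 in WT and 4939, 4968, 4938 and 3649 in KO, and Cct8 had 5065, 6019, 5406 and 8426 in WT and 4426, 5045, 4656 and 4264 in KO. All 3 repeated a single order at the extremes: WT4 was the highest of the 8 libraries, KO4 the lowest, and the groups did not overlap. No overlap was seen in 50.2% of all listed coding genes lower in KO, and 3 genes set no rate for the family. Their log2 fold changes lay close together, from -0.44 to -0.41 in the authors' deposited table. Without WT4 the KO means were 0.816, 0.824 and 0.836 of the WT means, against 0.75, 0.74 and 0.738 with it.

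Of the proteasome, 3 genes from different parts of the particle were listed, all without overlap. The share without overlap was 50.2% over all listed coding genes lower in KO, and 3 genes set no rate for the family. Psma3, a subunit of the core's outer ring, stood at 2591, 2955, 2629 and 3391 normalized counts in WT and 2194, 2220.4, 2086 and 2102 in KO. Psmc6, an ATPase of the regulatory cap that unfolds substrates, had 2364, 2503, 2474 and 2729.6 in WT and 2031, 2196, 2052 and 1997 in KO. Psmd4, a cap subunit that binds ubiquitin chains, had 2881, 2492, 2613 and 3763 in WT and 2364, 2308, 2268 and 1991 in KO. The 4 KO values of Psma3 stayed within a narrow band, with a mean of 2151 ± 66.8 against 2892 ± 371 in WT (SD, n = 4 each), and the log2 difference in the authors' deposited table was -0.43 (SE 0.13 in the DESeq2 refit). Psmc6 had the smallest difference of the 31, at -0.28 on the log2 scale in the authors' deposited table. The inducible immunoproteasome subunits Psmb8, Psmb9 and Psmb10 were not listed.

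The respiratory chain was represented by names beginning with Nduf alone, and 3 were listed. Ndufa4, first assigned to complex I and since found with cytochrome c oxidase, stood at 2944, 3079, 2719 and 2048 normalized counts in WT1 to WT4 and 1866, 2146, 1908 and 1591 in KO1 to KO4. WT4 was the lowest WT library here and lay below KO2; without it the groups did not overlap, and the KO mean went from 0.696 to 0.644 of the WT mean. Ndufc2, an accessory subunit of complex I, had 2023, 1686, 1944 and 2949 in WT and 1323, 1628, 1339 and 1696 in KO, with KO4 just above WT2. Ndufa4l2, a paralog of Ndufa4 known to be induced by low oxygen, had 49.6, 23.6, 29.3 and 69.8 in WT and 23.1, 21.4, 13.3 and 0.978 in KO. The lowest of these is 1 read, and the spread within both groups was wide. Its log2 difference was -1.55 in the authors' deposited table, with an SE of 0.73 in the DESeq2 refit.

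Across the families, the KO libraries all lay below the WT mean in 31 of 31 genes. Since the genes were listed by p and all stood lower, this was close to fixed. In 14 of the 31 the 4 KO values also lay below every WT value (45.2%), and in a further 14 only 3 KO values did. The shares below the WT mean and with only 3 KO values below were not computed over other listed genes. Separate groups were about as frequent over all listed coding genes lower in KO, at 50.2% (223 genes, 20.3% of all listed coding genes). KO2 was the highest KO library in most of the 31. Without KO2, separate groups were seen in 23 (74.2%), against 63.3% of the listed coding genes lower in KO. As KO2 was picked by its rank in these genes, that rise was close to fixed. Without KO1 or KO3 the count was 14 (45.2%), against 56.8% and 57.2%, and without KO4 it was 19 (61.3%), against 54.5%. With any 1 WT library left out, the share among the 31 was below that of the listed coding genes lower in KO. When the recovered reads were refitted with the quasi-likelihood test of edgeR, 29 of the 31 had an unadjusted p below 0.05, against 77.7% of the listed coding genes lower in KO. Rpsa and Ndufa4l2 were the 2 that did not, at an edgeR unadjusted p of 0.0545 and 0.0628. With adjustment over 19985 genes, 0 of the 31 passed 0.05, the smallest edgeR adjusted p being 0.867, and 0% of the listed genes passed.

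WT4 was often the top library in these genes. Among the WT libraries it ranked highest for 23 of the 31 genes (74.2%), against 205 of the 413 other listed coding genes lower in KO (49.6%) and 51.4% of all listed coding genes lower in KO. The ratio of WT4 to the mean of WT1 to WT3 had a median of 1.38 over the 31 and 1.15 over the 413. It reached 1.5 or more in 9 genes, the highest being 2.51 in Snrpe, and was under 1 in 4 (Hnrnpdl, Srsf6, Polr3gl and Ndufa4). The difference in these shares was not tested.

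Leaving out WT4 kept the 31 genes lower in KO, as it did the 413 others. The median KO level then stood at 79.2% of WT in place of 73.4%, and the median log2 ratio at -0.34. Separate groups were seen in 16 of the 31 without WT4 (54.5% of listed coding genes lower in KO). The number with an edgeR unadjusted p below 0.05 went from 29 to 10 (32.3%), against 39.2% of listed coding genes lower in KO. Those 10 were Ndufa4, Rpl22l1, Psma3, Srsf6, Snrpe, Snrpd1, Hnrnpdl, Hnrnph1, Mrpl33 and Polr3gl. Other libraries also moved this count. Without KO1 it was 8 (25.8%), against 45% of the listed coding genes lower in KO, and without KO3 it was 7 (22.6%), against 46.4%. Without WT1 or WT2 it was 19 (61.3%), against 49.5% and 53.4%. Without WT3, KO2 and KO4 it was 22, 21 and 24 (71.0%, 67.7% and 77.4%), against 66.7%, 53.2% and 57%. The share among the 31 was thus below that of all listed coding genes lower in KO without WT4, KO1 or KO3 and above it without the other libraries, a difference that was not tested.

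**Figure D2:**
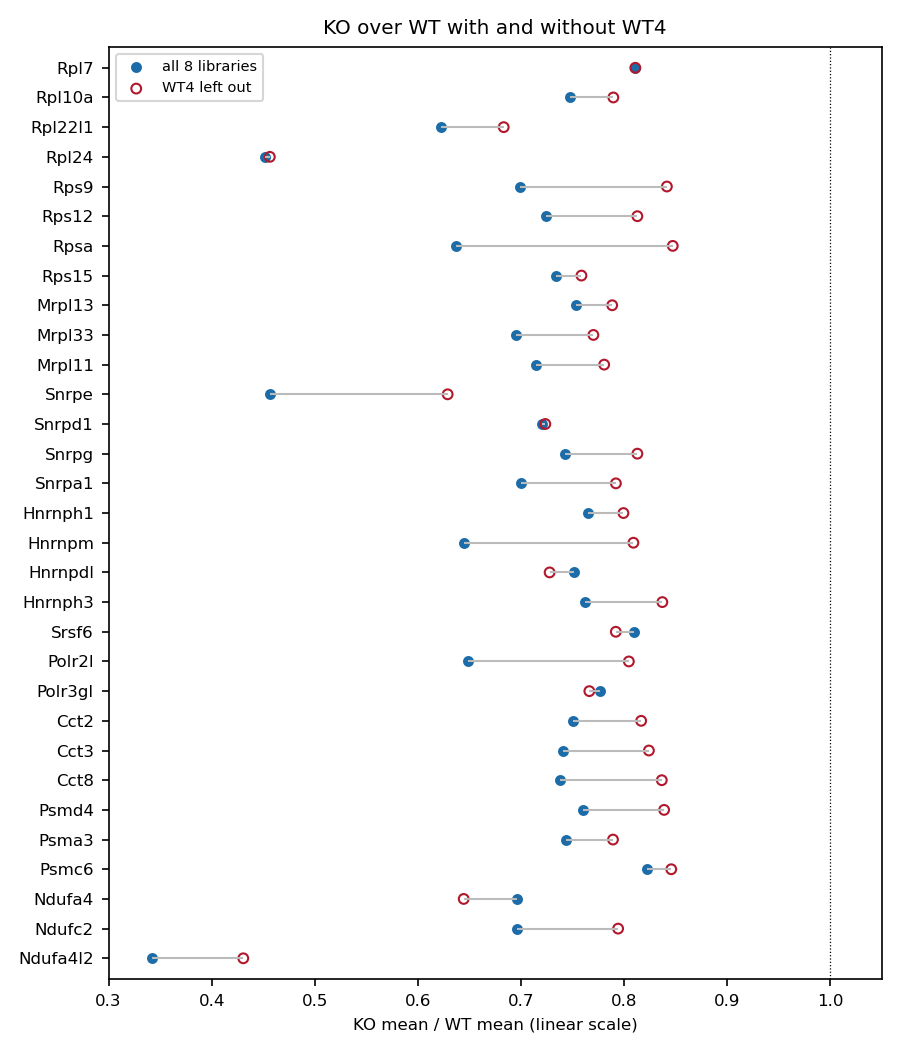
KO mean over WT mean for each of the 31 genes with all 8 libraries (filled) and with WT4 left out (open), on a linear axis. All points stay left of 1; Rpsa, Snrpe, Hnrnpm and Polr2l move furthest to the right, and Ndufa4, Hnrnpdl, Srsf6 and Polr3gl move slightly left.

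In the median over these genes KO4 lay within the range of the other KO libraries, but in single genes it was often at an extreme, the lowest KO library in 16 of the 31 and the highest in 7. Relative to the WT mean, the median of the 31 was 0.682 in KO1, 0.795 in KO2, 0.698 in KO3 and 0.720 in KO4. Over the 413 other coding genes lower in KO, the same medians were 0.633, 0.649, 0.637 and 0.443, with KO4 the lowest. The difference between the sets was not tested. Among the KO libraries KO2 ranked highest for 21 of the 31 genes (67.7%), against 39.2% of the 413, and KO4 lowest for 51.6%, against 66.8%. With KO4 left out, the median log2 ratio of the 31 was -0.45, as with all libraries.

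**Figure D3:**
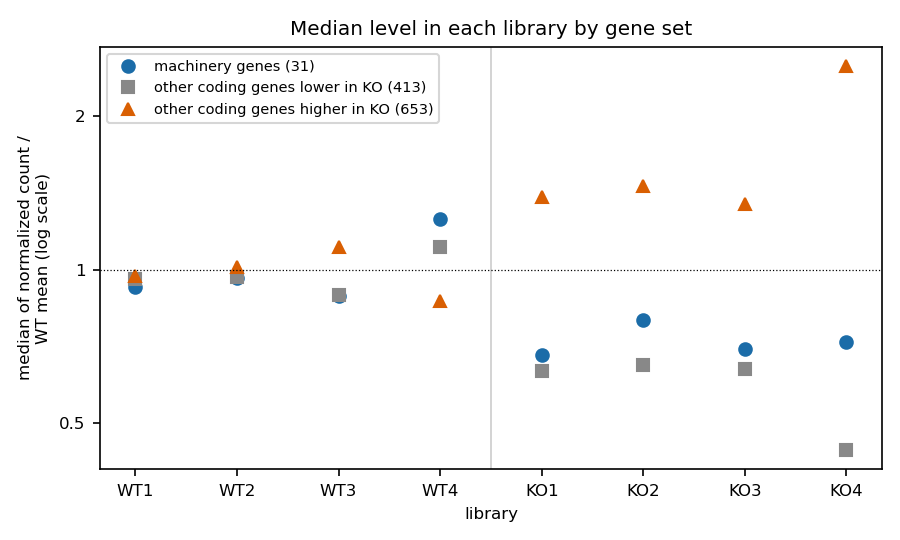
Median over genes of normalized count divided by the WT mean (log scale) in each library, for the 31 machinery genes and for the other listed coding genes lower or higher in KO. The machinery genes lie between 0.682 and 0.795 in all 4 KO libraries, whereas KO4 departs from KO1 to KO3 in both other sets, to 0.443 and 2.51.

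The genes lay on 16 chromosomes, at most 5 of them on 1 (chromosome 10). Their gene models had a median of 2481 bases in the table's length column (476 to 7490), against 2946 bases for the 413 other coding genes lower in KO and 4564 bases for the 653 higher. In the table as a whole direction went with length. Among listed coding genes outside the 31, 59.1% stood lower in the shortest of 5 length classes of near-equal size (up to 1962 bases), then 46.9%, 40.5%, 29.9% and 18.3% up to the longest (6709 bases and more). The 31 stood lower in every class, with 12, 8, 4, 5 and 2 genes from shortest to longest. Between length and log2 fold change, Spearman's rho was 0.37 over the 31 genes (Pearson's r 0.37 with log2 length), which share the same 8 libraries. Over the 413 other coding genes lower in KO, rho was 0.093 (Pearson's r 0.10). The 3 largest differences, in Ndufa4l2, Rpl24 and Snrpe, were all in models of at most 1323 bases, and the first 2 of these have few reads. The part of length in the direction was not tested.

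**Figure D4:**
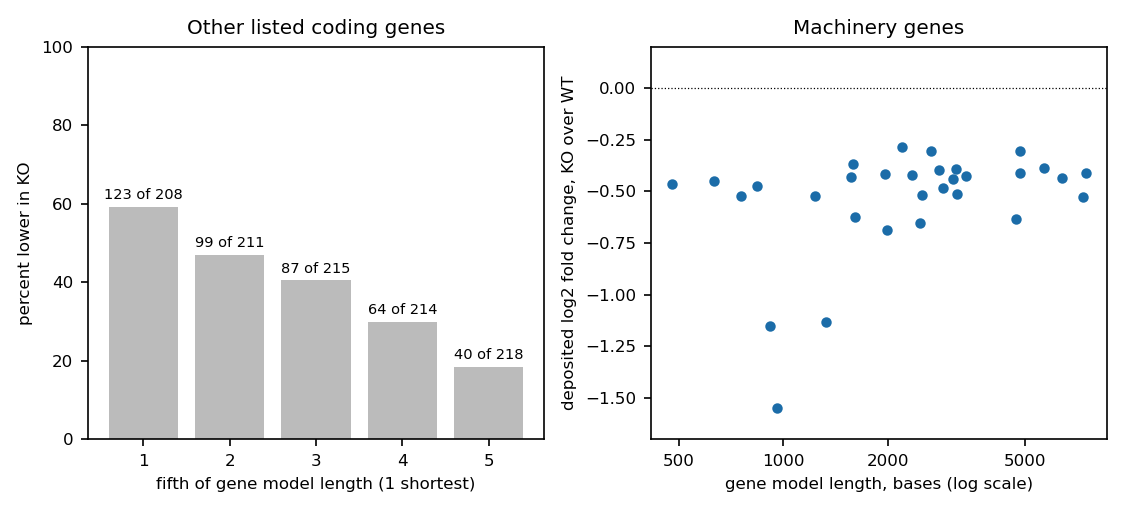
Left, percent of the other listed coding genes lower in KO in 5 classes of gene model length, with counts, from 59.1% in the shortest to 18.3% in the longest. Right, deposited log2 fold change of the 31 genes against gene model length (log axis); all lie below 0 at every length.

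Abundance ran the other way, mainly in its highest class. Of the 31, 17 were in the highest of 5 abundance classes of listed coding genes (mean of 1535 normalized counts and more) and 10 in the next. Outside the 31, the share lower from the lowest class to the highest was 42.2%, 43.4%, 41.5%, 39.2% and 26.6% (54 of 203).

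Other genes of the same machines, from 7 lists that the prefixes do not cover, were also on the lower side where listed: 8 of 135 were listed (5.93%), all 8 lower. The share listed was near that of all tested genes (7.06%), and 40.5% of all listed coding genes stood lower. Of 22 ribosome assembly and nucleolar genes, 5 were listed. Npm1, the nucleolar chaperone nucleophosmin, stood at 8514, 9875, 8485 and 11866 normalized counts in WT1 to WT4 and 6711, 7230.4, 6939 and 7014 in KO1 to KO4, with no overlap. Fbl, which methylates ribosomal RNA, had a mean of 2273 ± 325 in WT and 1686 ± 200.4 in KO, with KO2 above WT2, and Mrto4, a ribosome assembly factor, 1081 ± 173 in WT and 823 ± 74.3 in KO (SD, n = 4 each). Nop16 and Nip7 were the other two. The splicing list added Rbm8a, a core protein of the exon junction complex, at 1675 ± 229 in WT and 1241 ± 117 in KO (SD, n = 4 each). The folding list added Pfdn4, of the prefoldin complex that hands clients to CCT, at 366 ± 77.6 in WT and 269 ± 21.8 in KO (SD, n = 4 each), and the degradation list Uchl5, a proteasome deubiquitinase, at 796 ± 53.5 in WT and 628 ± 64.6 in KO (SD, n = 4 each). None was listed of 16 elongation and ribosome-associated genes, of 19 respiratory chain genes outside the prefixes or of 21 genes of mitochondrial import and gene expression. None of the 8 passed an adjusted p below 0.05.

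Among 15 upstream regulators, 2 were listed, both higher in KO, and Myc, Mtor, Larp1 and Gabpa were not listed. The share listed was 7.06% over all tested genes, 40.5% of listed coding genes stood lower, and 2 genes set no rate. Eef2k, the kinase that inhibits translation elongation, stood at 1508, 1437, 1878 and 1623 normalized counts in WT1 to WT4 and 2115, 1919, 1939 and 2848 in KO1 to KO4, every KO library above every WT library. Ppargc1b, a coactivator of mitochondrial genes, had 149.8, 144, 169.9 and 111 in WT and 162, 194, 166 and 715 in KO, where KO4 alone held most of the difference. Neither passed an adjusted p below 0.05 in the authors' deposited table (0.668 and 0.677).

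Markers of dividing and of other cells were listed as well, none but Fosb with an adjusted p below 0.05 in the authors' deposited table. Of all tested genes 7.06% were listed, and of all listed genes 41.9% stood lower. Lists this short set no rate. Of 9 stem and proliferation genes, 3 were listed, all lower (Ascl2, Top2a and Birc5). Their summed level was 5958 to 8050.2 normalized counts in WT and 4412 to 6372 in KO. Of 9 B and plasma cell genes, 8 were listed, all higher, summing to 94.5 to 210.4 in WT and 168.7 to 2662 in KO, the most in KO4. Of 8 T cell genes, 3 were listed, all higher, summing to 59.3 to 78.1 in WT and 127.3 to 159.5 in KO. Pax5, Blk, Ighd and Cd8b1 were at 0 in at least 1 WT library, and Cd8b1 also in KO2. Of 7 colonocyte genes, 2 were listed, both higher, summing to 5675 to 7488 in WT, 8167 to 9172 in KO1 to KO3 and 23257 in KO4. The groups did not overlap in Cdhr5. They did in Mep1a, at 204 to 679 in WT and 573, 837, 294 and 4431 in KO1 to KO4. The single listed gene of the myeloid list, Il1b, was lower, at 1038 to 1296 in WT, 549.9 to 741.6 in KO1 to KO3 and 67.5 in KO4. That of the fibroblast and muscle list, Dpt, was higher, at 60.7 to 124.4 in WT and 120.5 to 194.7 in KO. Of 8 general epithelial markers none was listed, and the listed marker genes give no check of the tissue or knockout labels. Of 6 genes of RNA quality and stress, Fos and Fosb were listed, both higher (Fosb with a DESeq2 adjusted p of 0.0447 in the authors' deposited table), summing to 1666 to 2353 in WT and 2479 to 3901 in KO. The part of these cells and of RNA quality in the lower machinery transcripts was not tested, and in bulk tissue fewer cells of a type and less RNA per cell cannot be told apart.

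The sizes moved with the scaling. With TMM factors computed from the listed genes in place of the deposited size factors, the median log2 difference of all listed genes went from 0.48 to 0.32, and that of the 31 from -0.45 to -0.61. All 31 stayed lower, and 30 had separate groups in place of 14 (96.8%), while over the listed coding genes lower in KO the share with separate groups went from 50.2% to 69.4%. With median-of-ratios factors the median of the 31 was -0.62, and 29 had separate groups (93.5%), against 66.9%. Both sets of factors come from genes selected by p, not from whole libraries.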

How the data were processed

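Total RNA of 8 colon tumour libraries was extracted with TRIzol and sequenced from strand-marking libraries, per the labels' protocols. HISAT2, DESeq2 and the build GRCh38, a human build, are named without versions in the submitters' processing notes, although gene identifiers are of the mouse C57BL/6NJ annotation; no source used here names the counter. The authors deposited 1 table with a normalized signal per library (counts divided by size factors), a log2 fold change of KO over WT, and an unadjusted and an adjusted p-value. Its gene length column was used as deposited.

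Every signal value times 1 factor per library (0.933 to 1.12) fell within 0.001 of a whole number in 100% of values, and these reads went into quasi-likelihood tests of edgeR 4.0.16, with DESeq2 1.42.0 and limma 3.58.1 as alternatives (log2 of value plus 1 or plus 0.1) in R 4.3.3, on all 1428 listed genes with the deposited factors and Benjamini-Hochberg adjustment over the 19985 genes that the deposited adjustment implies (218 of 231 steps within 1). The refits rest on genes selected by p and are not independent tests. The refit was tested on simulated data first. The simulation gave every gene the same dispersion and set no library apart, unlike WT4 and KO4 here. It therefore checked the running of the code, not the results. DESeq2 refit fold changes of the 31 genes differed from the deposited ones by at most 0.000327.

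The members and lists were chosen with earlier results of these data known. Values in every library are given for the 3 most abundant members of each family and the 5 smallest p-values (27 genes); Rpl24, Rps15, Hnrnph3 and Snrpa1 complete the 31. For the machinery lists, up to 3 listed genes by mean are described; 1 gene of the marker lists is not reported here. Other names were chosen after their values were seen. RefSeq (GRCm38.p6) gave gene names, all 31 matched, and promoters. Replicate numbers are not stated to pair libraries. Chi-square per degree of freedom between libraries of a group was at least 19.8, so none were merged. Alternatives were each library left out, scaling, filter, biotype, test, pseudocount and a replicate block.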

Additional observations from a re-analysis of the deposited data

Results flagged for a closer look

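In 62 groups of 4 libraries (31 genes, WT and KO), 3 had a highest or lowest library whose gap to its neighbour exceeded Dixon's 95% critical value, as a share of the group's range; chance gives about 1 in 20. Hnrnpm in WT4 stood at 12458 normalized counts, above the next WT library at 6599. Cct3 in KO4 stood at 3649, below the next KO library at 4938. Hnrnph1 in KO4 stood at 5772, below the next KO library at 6183.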

How the results depend on the processing

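The count of 31 genes lower and 0 higher held under all 14 alternatives run for it, and the median log2 fold change stayed negative, from -0.62 with median-of-ratios factors to -0.31 with WT4 and KO4 both left out, an alternative chosen after seeing the data. Since the genes were listed by p, this direction was close to fixed. The filter at a mean of 10, taking all biotypes and leaving out kinases and regulators kept the same 31 genes, so these alternatives could not move the count. The 14 genes with separate groups became 30 with TMM and 29 with median-of-ratios factors of the listed genes, against 69.4% and 66.9% of the listed coding genes lower in KO, and 14 to 23 with 1 library left out (45.2% to 74.2%, against 54.5% to 69.1%). The 29 genes below an unadjusted p of 0.05 in edgeR became 7 to 24 with 1 library left out (22.6% to 77.4%, against 39.2% to 66.7%) and 17 without both WT4 and KO4 (54.8%, against 43%); DESeq2 gave 31, limma 28 or 27, and TMM factors 31, against 96.4%, 76.1% or 73.9%, and 92.8%. Fewer libraries also give a less powerful test. With the replicate number as a block it became 9 of the 31, against 36.7%, and the cause was not tested. Same-numbered libraries did not deviate together over listed genes (correlations of -0.24 to 0.054). Over the 31 genes the correlations were 0.62 for WT1 and KO1, -0.35 for WT2 and KO2, -0.57 for WT3 and KO3 and -0.32 for WT4 and KO4. Between libraries of different number they ran from -0.64 to 0.41 over the 31. The numbers were therefore not taken to pair the libraries. Of 216 refits of the 27 genes without 1 library, 84 passed from below to above an unadjusted p of 0.05, 4 the other way, and 0 changed sign. The share of short coding genes lower in KO was 61.4% in the shortest of 5 length classes, 59.1% without the 31 and 52.3% below the median length. The full depth of the libraries is not analysed here.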
